A study of Mus musculus with 12 samples.

Results

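Cytosolic ribosomal protein genes encode the proteins that, together with ribosomal RNA, form the small and the large subunit of the ribosome outside mitochondria. They were chosen here by symbol: Rps or Rpl followed by a number, with at most a closing letter or paralog mark, and Rpsa, Rplp0, Rplp1 and Rplp2. This rule found 84 of the 24421 genes in the deposited table: 31 small-subunit genes, 43 large-subunit genes, 3 genes of the stalk and 7 paralog genes. Of these, 79 had a mean normalized count of at least 10 and were kept for ratios, as were 14284 genes in all.

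The libraries came from whole adrenal glands of mice, cleaned of fat, with polyA-enriched RNA from 4 control, 4 Abca1 cKO and 4 Abcg1 cKO animals. Mice were on a mixed sv129-C57BL/6 background, and were 2-month-old females unless the study's methods state otherwise. Abcg1 cKO mice carried a Cre allele driven by aldosterone synthase (Cyp11b2) and 2 conditional alleles of Abcg1, a cholesterol exporter, and Abca1 cKO mice the same Cre with 2 conditional alleles of Abca1, a related lipid exporter. Control mice carried the Cre recombinase only, per the series' design text; the study's methods also allow littermates with a conditional allele as controls. Cre acts in steroid-producing cells of the cortex, so medullary, vascular and immune cells in the gland keep the gene.

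The study compared Abcg1 cKO with control and Abca1 cKO taken as 1 group, and 2 columns of the table could be tied to groups: the authors' mean over Abcg1 cKO and their mean over the combined group. Every value below is such a mean of normalized counts, printed without a spread or a test. The table also holds columns of single libraries, but their names match no sample label, so they were not used and no difference was set against the spread between animals. In these means control and Abca1 cKO cannot be told apart, and they do not give the read totals of the libraries. Ratios are log2 of Abcg1 cKO over the combined group after adding 1 to each mean. The means of Abcg1 itself were 305 in the combined group and 250 in Abcg1 cKO, a log2 ratio of -0.29, and the means of Abca1 were 7791 and 10057, a log2 ratio of 0.37. Of the 8 libraries of the combined group 4 are Abca1 cKO, so its Abca1 mean mixes animals with and without that deletion and is no reference level for intact Abca1. Star, the cholesterol transporter that marks steroid-producing cells, had means of 374521 and 507891.

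Ribosomal protein genes are among the most highly transcribed genes of most tissues, and their products are needed in fixed proportions in the ribosome. Many of their mRNAs start with a C and a run of pyrimidines, the 5′ terminal oligopyrimidine (TOP) tract, through which mTOR and the RNA-binding protein Larp1 control their translation. In the adrenal cortex, which makes steroids from cholesterol under the control of ACTH, protein synthesis is needed for the acute steroid response.

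Start sites are shown first because the TOP tract is the sequence feature that these genes are best known to share. RefSeq promoter sequence (GRCm38.p6) was matched by symbol for 63 of the 84 genes, 59 of them among those kept. The lines below give 15 bases before and 15 bases from the annotated start, 5′ to 3′ on the gene's strand. Capitals mark the TOP tract, taken as a C within 5 bases of the start followed by at least 4 pyrimidines (C or T). The genes are Rps6, the S6 kinase substrate, and members from both ends of the ratios described below.
Rps6 (chr4:86857353-86857382, minus strand): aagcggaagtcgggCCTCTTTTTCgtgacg
Rplp2 (chr7:141447636-141447665, plus strand): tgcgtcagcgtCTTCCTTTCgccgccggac
Rpl7a (chr2:26910792-26910821, plus strand): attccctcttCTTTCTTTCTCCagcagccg
Rps15a (chr7:118116133-118116162, minus strand): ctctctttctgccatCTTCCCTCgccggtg
Rpl38 (chr11:114668565-114668594, plus strand): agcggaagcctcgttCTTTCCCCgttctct
Rpl22l1 (chr3:28805493-28805522, plus strand): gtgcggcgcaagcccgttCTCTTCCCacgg
Rpl36a (chrX:134585639-134585668, plus strand): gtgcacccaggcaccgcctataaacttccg
Rpsa (chr9:120127751-120127780, plus strand): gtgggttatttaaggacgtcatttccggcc

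Tracts began within 3 bases of the start in Rps6, Rps15a, Rpl38 and Rpl22l1, and 4 or 5 bases before it in Rplp2 and Rpl7a. Rpl36a and Rpsa show no such tract at their annotated start. That says only that these letters are not in this window of the annotation. By the same search a tract was present in 29 of the 59 genes kept with a promoter (49.2%), beside 21.2% of all 27025 genes in the promoter table.

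Most ribosomal protein genes had slightly lower means in Abcg1 cKO, with log2 ratios that ran from -0.26 to 0.27. The median log2 ratio over the 79 genes kept was -0.097, a fold of 0.935, with quartiles of -0.12 and -0.064. Over all 14284 genes kept the median was 0.0021, with quartiles of -0.13 and 0.12. The mean in Abcg1 cKO was the lower one for 69 of the 79 genes (87.3%), beside 49.5% of all genes kept. Since most ribosomal protein genes are highly expressed, they were also set beside well-expressed genes alone. Over the 4199 genes with a mean of at least 1000 the median was 0.047 and 34.6% had a log2 ratio below 0. Levels were not matched: the median mean count was 1865 for those genes and 9171 for the ribosomal protein genes. In bulk tissue, fewer cells of a type and less RNA per cell cannot be told apart.

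**Figure D1:**
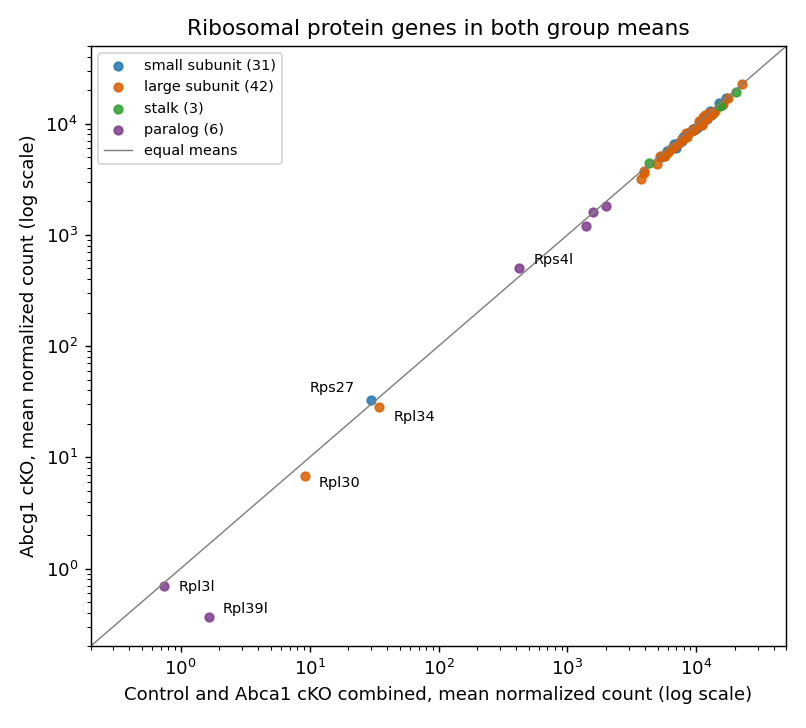
Mean normalized count of each ribosomal protein gene in the combined group of control and Abca1 cKO (x axis, log scale) and in Abcg1 cKO (y axis, log scale), 1 point a gene, coloured by role; genes listed at 0, Rpl26 and Rpl10l, are not drawn. Most points lie just under the line of equal means, and 69 of the 79 genes kept had the lower mean in Abcg1 cKO.

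Few genes were far from this median. At a fold of 1.2, the threshold of the study's methods, 1 of the 79 genes was higher in Abcg1 cKO (Rps4l), beside 10.6% of all genes kept, and 1 was lower (Rpl34), beside 12.0%. Both only just passed the log2 threshold of 0.2630, with log2 ratios of 0.2675 and -0.2644. Rps4l is annotated as a transcribed pseudogene, and Rpl34 had low means of 34.5 and 28.6. At a fold of 1.1, 13 of the 79 genes were lower, beside 23.6%. Among the 73 genes that are no paralog and had a mean of at least 1000, log2 ratios ran from -0.22 for Rpl36a to 0.042 for Rplp2 with an SD of 0.054 over genes. The SD over all genes with a mean of at least 1000 was 0.19. Over the 77 mitochondrial ribosomal protein genes, described below, it was 0.078, near the 0.076 of the 79 genes. These are spreads over genes, not over animals.

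Small-subunit genes, whose products bind mRNA and decode it, had a median log2 ratio of -0.097, and 28 of the 31 were below 0. The lowest was Rps15a, a core protein of the small subunit in all domains of life, with means of 6914 in the combined group and 6066 in Abcg1 cKO and a log2 ratio of -0.19. Rps27a, made as a fusion with ubiquitin, had means of 10080 and 9051 and a log2 ratio of -0.16. Rps6, which is phosphorylated by S6 kinase downstream of mTOR, lay closer to equal, with means of 6707 and 6543 and a log2 ratio of -0.036. Rpsa, the laminin receptor precursor that also sits in the small subunit, had almost the same mean in both, 16938 and 16886, with a log2 ratio of -0.0044. Rps3 was just above 0, with means of 14989 and 15217 and a log2 ratio of 0.022. Rps27 was also above 0, at a level so low (means of 30.0 and 33.0) that its log2 ratio of 0.14 rests on few reads. Rps27a and Rps3, and Rpl4 below, were picked after their values were seen.

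Large-subunit genes, whose products surround the centre that forms peptide bonds, had a median log2 ratio of -0.098, and 37 of the 41 genes kept were below 0. Rpl36a had the lowest ratio of the well-expressed genes, with means of 3709 and 3191 and a log2 ratio of -0.22. Rpl38 and Rpl39, which encode very small proteins of the large subunit, had means of 5753 and 5073, and of 4968 and 4383, with a log2 ratio of -0.18 each. At the upper end Rpl8 had means of 11245 and 11491 and Rpl7a means of 11735 and 11939, with log2 ratios of 0.031 and 0.025. Rpl4, the gene with the highest mean count of all members, had means of 22609 and 22643.

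The stalk recruits elongation factors to the large subunit and is built from Rplp0 and the acidic proteins Rplp1 and Rplp2. Rplp0 had means of 20227 and 19147, with a log2 ratio of -0.079, and Rplp1 means of 15281 and 14412, with a log2 ratio of -0.084. Rplp2 was on the other side, with means of 4265 and 4390 and a log2 ratio of 0.042. Whether Rplp2 differs from its partners was not tested.

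**Figure D2:**
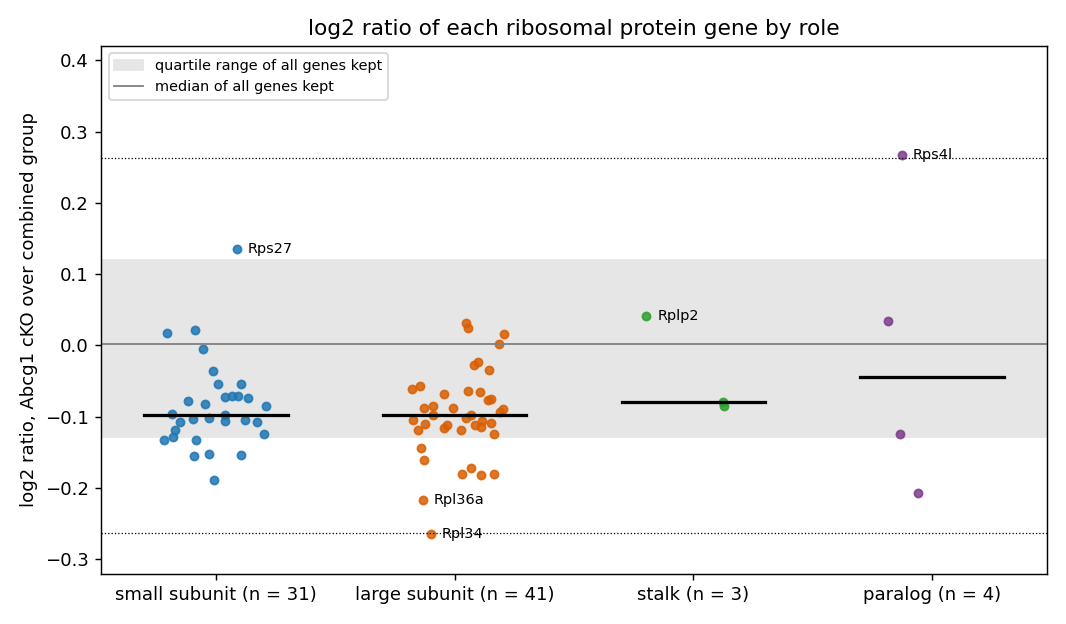
Log2 ratio of Abcg1 cKO over the combined group (y axis) for the 79 ribosomal protein genes kept, by role (x axis); points are genes, spread sideways for view, black bars are medians, grey shading spans the quartiles of all genes kept, the grey line is their median, and dotted lines mark a fold of 1.2. Small-subunit and large-subunit genes gather around medians of -0.097 and -0.098, and only Rps4l and Rpl34 lie past the dotted lines.

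Universally conserved proteins, those with a counterpart in bacteria, archaea and eukaryotes, were set beside the others, from a list written after values had been seen. The median log2 ratio was -0.097 over 32 universal genes kept and -0.096 over the 43 others that are no paralog. The genes are scattered through the genome: 78 members kept with a position lay on 19 chromosomes, with at most 14 on any of them (chromosome 7). Over the 6 chromosomes with at least 5 members, medians ran from -0.13 to -0.076. The 7 members on chromosome 17, which holds Abcg1, had a median of -0.098, and the 5 on chromosome 4, which holds Abca1, a median of -0.094.

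Levels between genes were compared as mean normalized count per kb of the main GENCODE transcript (GRCm38). For the 78 genes kept that have a transcript, the median was 12291 per kb, with quartiles of 8244 and 15011. The highest levels were those of Rplp1 (29753 per kb) and of Rpl41 (26040 per kb), which encodes the shortest ribosomal protein. They were followed by Rpl10, which joins the large subunit late in its maturation, at 21551 per kb, by Rps12 at 21300, Rps15 at 20902 and Rps29 at 20358 per kb. The lowest were Rpl34 at 65.7 and Rps27 at 91.4 per kb, the only genes kept that were below 1000 per kb. Above them came the paralogs Rpl7l1 at 1212, Rpl22l1 at 2359 and Rps27l at 3810 per kb, and Rps20 at 1826 per kb. Rps20 had mean counts of 7005 and 6530, and its annotated main transcript is 3706 bases long.

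**Figure D3:**
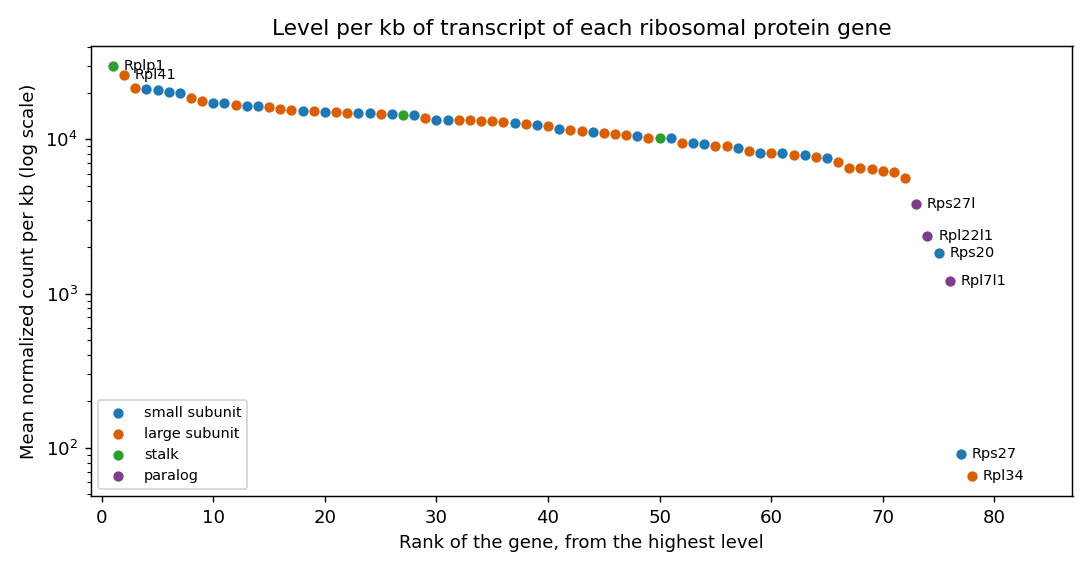
Mean normalized count per kb of transcript, averaged over both group means (y axis, log scale), of the 78 ribosomal protein genes with an annotated transcript, ranked from the highest (x axis) and coloured by role. Most genes form a gentle slope around the median of 12291 per kb, with paralogs, Rps20, Rps27 and Rpl34 at the low end.

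The genes with low values deserve a separate account, since their products are core proteins of the ribosome. Rpl26 was listed at 0 in both means, Rpl30 had means of 9.15 and 6.79, Rpl34 means of 34.5 and 28.6, and Rps27 means of 30.0 and 33.0. The study counted uniquely mapped reads, and ribosomal protein genes have many near-identical processed pseudogenes. As a wider measure, the share of 100-base windows of the main transcript that occur unchanged in a transcript of another annotated gene, on either strand, was counted. The other gene need not be a pseudogene: RPS10-NUDT3, which overlaps Rps10 on the same strand, counts for Rps10. This share was 98.4% for Rps27, 53.5% for Rpl30, 36.8% for Rpl26 and 31.0% for Rpl34. Its median over 83 members was 41.4%, with 36 members over 50% and 9 at 0. Well-counted genes could share as much, such as Rpl10 at 91.6% and Rps12 at 88.9%, and the part of shared sequence in the low values was not tested. Pseudogenes without an annotated transcript were not searched. Rpl26 and Rpl34 had shares below the median of 41.4%. The levels of the genes with low values are uncertain, and so is the level of any member with a large shared part.

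Paralog genes, apart from the pseudogene Rps4l, encode relatives of a ribosomal protein, several with a known restriction to testis or muscle. Whether each relative takes its parent's place in the ribosome was not examined. Rpl10l, a testis variant of Rpl10, was listed at 0 in both means. Rpl3l, the muscle variant of Rpl3, had means of 0.742 and 0.703, and Rpl39l, a testis variant of Rpl39, had means of 1.65 and 0.367. None of these was kept for ratios, while their parent genes Rpl10 (means of 17586 and 16853, log2 ratio -0.061) and Rpl3 (13396 and 12394, -0.11) were well expressed. Rpl22l1, a paralog of Rpl22, had means of 1395 and 1209 with a log2 ratio of -0.21, and its level per kb was 18.6% of that of Rpl22 in the combined group and 17.4% in Abcg1 cKO. The share of windows found in another gene was 50.8% for Rpl22l1 and 0% for Rpl22, so these percents are uncertain. Rpl22 itself had means of 6459 and 5981 with a log2 ratio of -0.11. Rpl7l1 had means of 1569 and 1607 with a log2 ratio of 0.035, and stood at 10.03% of Rpl7 per kb in the combined group and at 10.9% in Abcg1 cKO. Rpl7 had means of 13888 and 13050 with a log2 ratio of -0.090. Rps27l had means of 1983 and 1819 with a log2 ratio of -0.12, and its level cannot be set against Rps27, whose own count was so low. Rps4l, annotated by RefSeq as a transcribed pseudogene, had means of 420 and 506 and the highest log2 ratio of the members kept, 0.27. Its X-linked parent gene Rps4x had means of 13528 and 12554 and a log2 ratio of -0.11. Rps3a1, the mouse gene for the S3a protein, had means of 11996 and 10942 with a log2 ratio of -0.13.

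Gene length and level went only weakly with the ratio. Over the 73 well-expressed genes that are no paralog, Spearman's rho with the log2 ratio was 0.24 for transcript length (Pearson's r = 0.17), 0.29 for the mean count (r = 0.34), 0.25 for GC content (r = 0.22), 0.037 for the shared windows (r = -0.0028) and 0.013 for the level per kb (r = 0.019). These genes were measured in the same libraries and are not independent. By length, the median was -0.11 for the 25 shortest transcripts (271 to 612 bases), -0.077 for the 24 of middle length and -0.094 for the 24 longest.

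Motifs of the promoters were searched in the 250 bases before and 50 bases after the RefSeq start, on both strands except for the TOP tract. The core of the ETS and GABPA site, CCGGAAG, was present in 24 of the 59 genes kept with a promoter (40.7%), beside 9.93% of all genes in the table. The YY1 core AAGATGG was present in 10 (16.9%, beside 7.28%), and TATAAA in 7 (11.9%, beside 15.7%). Genes with a TOP tract had a median log2 ratio of -0.085 and those without a median of -0.098. With CCGGAAG the median was -0.091 and without it -0.097, with AAGATGG -0.10 and without it -0.088, and with TATAAA, in 7 genes, -0.13 and without it -0.088. These differences were not tested. On its other strand, CCGGAAG holds a C with 4 pyrimidines after it, so the TOP search and this motif can overlap. Rps6 shows both features: its CCGGAAG, in capitals, lies 91 bases before the start in the 150 bases upstream (chr4:86857368-86857517, minus strand), shown as an example of such a promoter.
Rps6 upstream: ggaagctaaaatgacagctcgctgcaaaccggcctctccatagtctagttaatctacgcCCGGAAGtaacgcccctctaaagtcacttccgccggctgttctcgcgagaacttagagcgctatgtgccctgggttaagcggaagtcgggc

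Other genes of the translation machinery gave the ratio of ribosomal protein genes a setting. Of the genes that complete the ribosome under other names, Fau, which encodes S30 fused to a ubiquitin-like protein, had means of 6495 and 6001 with a log2 ratio of -0.11. Gnb2l1, the scaffold protein Rack1 on the small subunit, had means of 13932 and 13135 with a log2 ratio of -0.085. Both lay within the quartile range of the small-subunit genes. Over the 23 TOP mRNAs of other names, these included, the median was -0.057, with 16 below 0. Past a fold of 1.2, 1 was higher (Impdh2, of guanine nucleotide synthesis, 0.30) and 1 lower (Hnrnpa1, an RNA-binding protein, -0.54). The shares over all genes kept were 10.6% and 12.0%. The elongation factor Eef1a1 had means of 118008 and 117991, and Eef2 a log2 ratio of 0.043.

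Mitochondrial ribosomal proteins, which serve the separate ribosome of mitochondria, had a median log2 ratio of 0.013 over 77 genes, none of them past a fold of 1.2 in either direction. Of all genes kept, 10.6% were higher and 12.0% lower past that fold. Ribosome biogenesis factors had a median of 0.042 over 30 genes, with 2 higher past that fold, Fbl, the methyltransferase of box C/D particles (0.31), and Rrp12 (0.29), and none lower. RNA polymerase I and its factors, which transcribe ribosomal RNA, had a median of -0.046 over 14 genes, with 3 lower past that fold, the promoter factors Taf1b (-0.28), Taf1c (-0.32) and Taf1d (-0.28). Translation initiation factors had a median of 0.044 over 42 genes, with none past that fold. In the mTOR and Larp1 axis the median was 0.013 over 17 genes, with 1 higher (Mycn, 0.58) and 1 lower (Rps6kb2, an S6 kinase, -0.32), while Mtor was at 0.0035 and Larp1 at 0.10. As sets outside translation, proteasome subunits had a median of -0.014 over 38 genes and oxidative phosphorylation subunits a median of 0.050 over 79 genes. Past that fold, 0 proteasome genes were higher and 1 lower, and 2 oxidative phosphorylation genes were higher and 2 lower. None of these lists had a median as low as the -0.097 of the ribosomal protein genes.

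**Figure D4:**
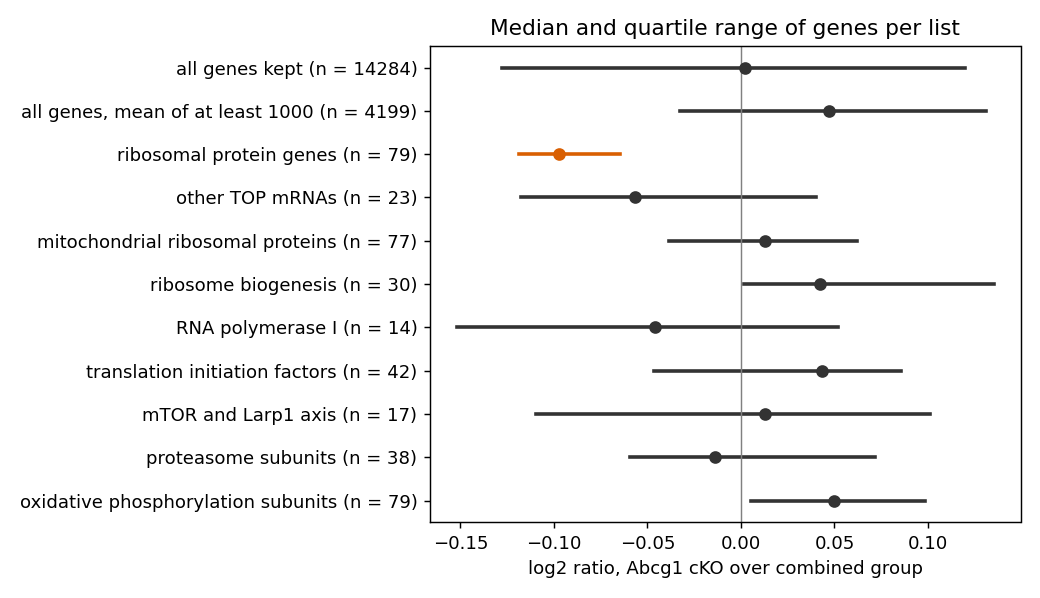
Log2 ratio of Abcg1 cKO over the combined group (x axis) for the genes kept in each list (rows); points are medians and bars span the quartiles. The ribosomal protein genes center on -0.097, mitochondrial ribosomal proteins on 0.013 and oxidative phosphorylation subunits on 0.050.

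Shares of the summed counts and levels of cell type markers are given beside these ratios. Ribosomal protein genes made up 4.01% of the sum of all normalized counts in the combined group and 3.67% in Abcg1 cKO. The 45S ribosomal RNA precursor Rn45s, which polyA enrichment should largely remove, had means of 645559 and 116183, a log2 ratio of -2.47. Without Rn45s the shares were 4.15% and 3.69%. Past a fold of 1.2, 10.6% of all genes kept were higher and 12.0% lower. Medulla markers were higher past that fold in 5 of 5 genes (summed level 128543 and 174927) and adipocyte markers in 5 of 5 (18870 and 41739). Of the 6 cortex markers 4 were higher (979260 and 1248774). Cycling cell markers were lower past that fold in 5 of 5 (1158 and 595). Of 6 lymphocyte markers, 4 were kept and 2 of these were lower past that fold (513 and 422). Most of this sum came from Ptprc (438 and 380), while no other lymphocyte marker had a mean above 21.6 in either group. Of 4 macrophage markers 1 was lower past a fold of 1.2 (4114 and 4148), and of 4 endothelial markers none was past that fold (9698 and 9165). Of 5 erythroid markers the 4 globin genes were listed at 0 and 1 was kept, with none past the fold (258 and 224). The part of these differences in the lower ribosomal protein means was not tested.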

How the data were processed

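RNA of whole adrenals was polyA-enriched with the Illumina Stranded mRNA Prep and sequenced in pairs. The study's methods name both the NovaSeq and the NextSeq platform, with kits of different cycle numbers. They do not say which libraries ran on which, so a difference of platform between the groups could not be assessed. Reads, per the study's methods and the notes of the submitters, were trimmed (cutadapt 4.0), mapped to mm10 (STAR 2.7.10a), counted per gene when mapped uniquely (HTSeq 0.13.5) and normalized (DESeq2 1.38.3). The deposited signal values are DESeq2-normalized counts that the authors averaged over groups: 1 mean over Abcg1 cKO and 1 over control and Abca1 cKO combined. The table also holds 12 columns of single libraries, whose names match no sample label and which were not used, and the authors' fold changes and p-values, likewise not used. The planned limma test over single libraries was therefore replaced by its stated fallback, ratios of group means without a test. The depth per library is unknown from these means.

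Ratios are log2 of (mean + 1) over (mean + 1), for genes whose average of both means was at least 10; the calculation was tested on simulated data. Transcript lengths and shared windows came from GENCODE (GRCm38), using the shortest principal coding transcript, and promoters from RefSeq (GRCm38.p6). Protein identity between paralogs was not analysed here. Python 3.11.15, pandas 2.3.3, numpy 2.4.6 and matplotlib 3.10.9 were used. Named with values were the stalk genes, Rpsa, Rps6, paralogs with their parents, and the 6 highest and 6 lowest members by log2 ratio and by level per kb. Members and lists were chosen with earlier results of these data known. Alternatives were other pseudocounts, filters and folds, centring, and leaving out paralogs together with Rps4x. Values of some single genes are not reported here.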

Additional observations from a re-analysis of the deposited data

How the results depend on the processing

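The median log2 ratio of the ribosomal protein genes stayed between -0.099 and -0.097 in all settings. These were pseudocounts of 0.1 and 10, no filter, a mean of at least 100 or 1000, and centring on all genes kept. A last setting left out the paralogs and, by its symbol pattern, also Rps4x (74 genes left). Such settings could hardly move this median. The median mean count was 9171, far above any pseudocount, the filters left 76 to 84 members beside 79, and centring subtracted 0.0021. The counts past the fold were small and moved: with a pseudocount of 10, 0 genes were higher and 0 lower (all genes: 9.50% and 10.4%). Without a filter, 3 were lower (all genes: 14.7%), since Rpl30 and Rpl39l then enter. With a mean of at least 100, 0 were lower (all genes: 6.44%), since Rpl34 then leaves. At a fold of 1.1, 13 were lower (all genes: 23.6%), and at a fold of 1.5, 0 were higher and 0 lower (all genes: 2.695% and 3.10%). With a mean of at least 1000, a filter chosen after seeing the data, 0 were higher and 0 lower (all genes: 7.79% and 1.88%). For the 28 genes named by the rule and kept, the log2 ratios with pseudocounts of 0.1 and 10 lay within 1 SD over members of the reported value; a filter cannot move the ratio of a gene, and centring moves each by the same amount. No paired analysis was possible because the columns that could be tied to groups are means without replicate numbers. Leaving out each replicate was not run, since the columns of single libraries match no sample label, and no difference was set against the spread between animals.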

Other observations

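Genes with ribosomal protein names outside the symbol rule were in the table too, and are given as values. Rpl36al, a paralog of Rpl36a, had means of 2826 in the combined group and 2732 in Abcg1 cKO, with a log2 ratio of -0.049. Rpl37rt had means of 108 and 91.3 (log2 ratio -0.24). Of the annotated pseudogenes, Rps19-ps3 had means of 173 and 152 (log2 ratio -0.18), Rpl14-ps1 means of 91.0 and 79.3 (-0.20) and Rps15a-ps6 means of 13.3 and 35.0 (1.34). Rps27rt, Rpl34-ps1 and Rplp2-ps1 were listed at 0 in both means.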
